A study of Homo sapiens with 102 samples.

Results

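H3K14ac and H4K8ac were measured on human artificial chromosomes (HACs) after depletion of the acetyltransferase KAT7 or of the CENP-A chaperone HJURP. The 12 libraries described here were chosen by antibody and treatment labels, out of 102 libraries in the series. They hold 1 library for each combination of HAC line, acetylation and siRNA. The lines were named HAC 1-20 and, for the second clone, HAC 4-65. The siRNAs were siKAT7, siHJURP and siControl, a negative control siRNA. All cells were HT1080, a human fibrosarcoma line, each carrying one HAC, and each HAC line was a single isolated clone. Cells received 2 rounds of transfection before harvest, and DNA of 3 ChIP reactions was pooled before a library was made. There was therefore no replicate within a line, and p-values came only from comparisons that used both lines. Untreated cells of the same lines, with 1 library per line and acetylation, served as a second reference. Thymidine, colcemid and colcemid release cells of each line, which received no siRNA, entered only the choice of carried codes and the tests over both lines. The difference between siControl and untreated cells, in which neither factor was depleted, is called the yardstick below. KAT7 and HJURP levels were not part of these files, so the extent of depletion was not checked here.

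KAT7, also called HBO1, acetylates lysine 14 of histone H3 and lysines of the histone H4 tail, among them lysine 8. Both acetylations are marks of open chromatin. HJURP is the chaperone that deposits new CENP-A, the histone H3 variant that defines centromeric nucleosomes, and it does not acetylate histones. The comparison therefore set loss of a writer of the marks beside loss of a CENP-A loading factor.

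The synthetic arrays were read through short position codes, each unique to 1 repeat unit of the introduced DNA. In the HACs only a part of the CenU codes is single-copy, per the paper. Reads of the other codes can mix several sites. T codes belong to the centromeric units (CenU), which carry the CENP-B box, a binding site of the centromere protein CENP-B. L codes belong to the non-centromeric units (NCU), in which that box is mutated. A code was called carried by a line where its median share over the 49 libraries of that line reached 0.1% of T (or L) reads. HAC 1-20 carried 61 T and 96 L codes, and HAC 4-65 carried 75 T and 95 L codes. The arrays have no coordinates in the human genome. Spellings of codes on which later comparisons turn are given here so that their likeness can be seen. Capitals mark the 7 of 23 bases that vary among codes, and the first capital separates CenU from NCU codes. T and L names were matched to the study's CenU and NCU lists by number. L117, an L code carried by HAC 1-20, has no match, because the NCU list holds 96 codes.
T010: gggGaaaaAAcccGTtttGTggg
T065: gggGaaaaTAcccAAtttAAggg
T069: gggGaaaaTAcccTAtttTAggg
T071: gggGaaaaTAcccTGtttTGggg
T074: gggGaaaaTAcccGTtttGTggg
T091: gggGaaaaTTcccGGtttGGggg
T093: gggGaaaaTTcccCAtttCAggg
L012: gggCaaaaAAcccGCtttGCggg
L042: gggCaaaaAGcccGTtttGTggg
T065, T069, T071 and T074 differ from each other only in the last 4 capitals, so codes of near number have nearly the same sequence. Across carried codes the number of G and C bases ranged from 10 to 15. The correlation of a code's change with its GC number lay between -0.21 and 0.15 over the 24 sets of T or L codes, given as a description.

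The 12 libraries held 62775 to 679839 reads on codes. The shallowest were H4K8ac siKAT7 of HAC 4-65, with 62775 reads, and H4K8ac siControl, with 86884 reads in HAC 4-65 and 99351 in HAC 1-20. The H3K14ac siHJURP library of HAC 4-65 stood apart in composition, with 43 of 75 T codes under 100 reads. Reads that matched no code made up 6.28% to 8.97% of all reads in these libraries. Only relative amounts were counted, because the codes were amplified together. An equal loss of acetylation on T and L codes would leave all values below unchanged. Intervals cover counting error only, since reads of PCR products are not independent molecules.

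Relative to siControl, the ratio of T to L reads did not move alike in the 2 lines. In HAC 1-20 cells both acetylations were lower on T relative to L codes after either depletion. In HAC 4-65 cells H4K8ac was higher after either depletion, and H3K14ac differed little. T codes took 13.7% of matched H3K14ac reads in siKAT7 cells of HAC 1-20, 11.7% in siHJURP cells, 18.2% in siControl cells and 13.8% in untreated cells. The exact 95% binomial interval was widest in H4K8ac siKAT7 of HAC 4-65, from 37.4% to 38.2%. T codes took 27.7% of matched H4K8ac reads in siKAT7 cells of HAC 1-20, 25.4% in siHJURP cells, 34.0% in siControl cells and 32.2% in untreated cells. In HAC 1-20 the siControl library thus had the highest T share for both acetylations.

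In HAC 4-65 the order was different. T codes took 17.6% of matched H3K14ac reads in siKAT7 cells, 17.2% in siHJURP cells, 17.01% in siControl cells and 14.2% in untreated cells. For H4K8ac the T share was 37.8% in siKAT7 cells, 35.4% in siHJURP cells, 29.7% in siControl cells and 22.8% in untreated cells. Untreated cells of HAC 4-65 were lowest for both acetylations.

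**Figure D1:**
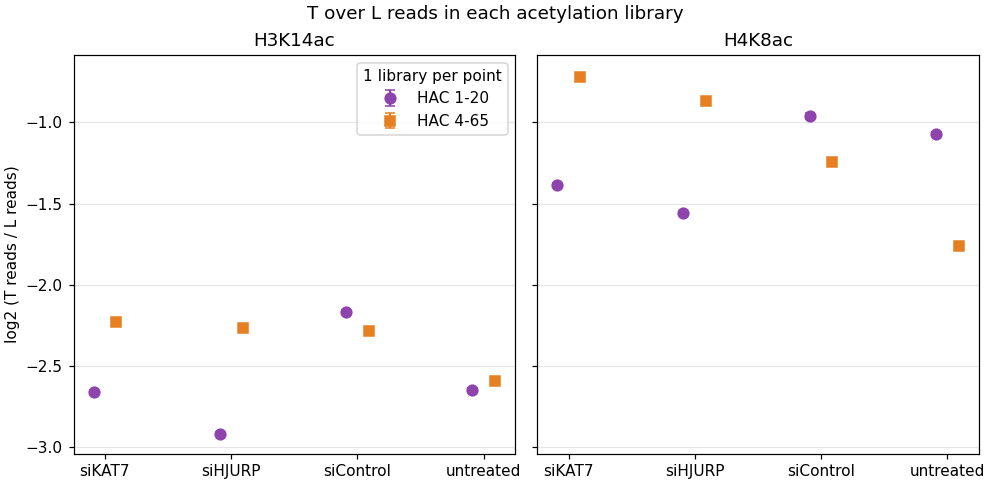
Log2 of T over L reads in each library, by condition (horizontal axis), with H3K14ac on the left and H4K8ac on the right. Each point is 1 library, and bars are 95% counting intervals, mostly smaller than the points. HAC 1-20 libraries lay lower in siKAT7 and siHJURP cells than in siControl cells, while H4K8ac libraries of HAC 4-65 lay higher.

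On the log2 scale, H3K14ac T over L changed in HAC 1-20 by -0.49 (95% counting interval -0.51 to -0.48) in siKAT7 relative to siControl cells. The change in siHJURP relative to siControl cells was -0.75 (-0.76 to -0.73). The yardstick of H3K14ac in this line, siControl minus untreated, was 0.48, nearly as large as the change after KAT7 depletion. The untreated H3K14ac library of HAC 1-20 had 16.4% of its T reads on codes that the line does not carry, against 1.30% in siControl cells. On carried codes alone the yardstick was 0.72, larger than the siKAT7 change of -0.50 and close to the siHJURP change of -0.76. Relative to the untreated library, the siKAT7 change was -0.011 with all reads and 0.21 on carried codes, and the siHJURP change -0.27 and -0.043. The H3K14ac decrease after KAT7 depletion in HAC 1-20 was thus present relative to siControl and not relative to untreated cells.

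H4K8ac T over L changed in HAC 1-20 by -0.42 (-0.45 to -0.40) in siKAT7 relative to siControl cells. In siHJURP relative to siControl cells it changed by -0.60 (-0.62 to -0.58). Both were larger than the yardstick, which was 0.11 with all reads and 0.17 on carried codes. Relative to untreated cells they were -0.31 and -0.48 with all reads, and -0.25 and -0.42 on carried codes. H4K8ac in HAC 1-20 thus had the same direction relative to both controls. T over L was higher in siKAT7 than in siHJURP cells by 0.17 (0.16 to 0.19) for H4K8ac and by 0.26 (0.24 to 0.27) for H3K14ac.

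In HAC 4-65 the H3K14ac change was 0.06 (0.04 to 0.08) in siKAT7 and 0.02 (0.01 to 0.04) in siHJURP, both relative to siControl cells. Both lay well within the yardstick of 0.31. The H4K8ac change was 0.52 (0.49 to 0.56) in siKAT7 and 0.38 (0.35 to 0.40) in siHJURP cells. The H4K8ac yardstick in this line was 0.51, so the first was at its edge and the second within it. T over L of H4K8ac was higher in siKAT7 than in siHJURP cells by 0.15 (0.12 to 0.17), and H3K14ac by 0.04 (0.01 to 0.06).

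None of these changes passed a test over both lines. T over L was higher in siKAT7 than in siHJURP cells of both lines for both acetylations. The difference lay within the yardstick for both acetylations in HAC 4-65 and for H3K14ac in HAC 1-20. For H4K8ac in HAC 1-20 it was past the yardstick with all reads, at 0.17 against 0.11. On carried codes it was not, at 0.171 against 0.174. Differences between conditions were averaged over the lines and set against all 1764 pairs of conditions that could be drawn from the 7 conditions of each line (the 3 siRNAs, untreated, thymidine, colcemid and colcemid release). The mean change of T over L in siKAT7 relative to siControl was -0.22 for H3K14ac (exact permutation p = 0.61, two-sided) and 0.05 for H4K8ac (exact permutation p = 0.92). In siHJURP relative to siControl it was -0.36 (exact permutation p = 0.39) and -0.11 (exact permutation p = 0.83). In siKAT7 relative to siHJURP it was 0.15 (exact permutation p = 0.73) and 0.16 (exact permutation p = 0.76). Over the 18 exact permutation tests of this kind, 0 had an unadjusted p below 0.05 and the lowest was 0.25. The lowest adjusted p was 0.98. The smallest p this design can give, 0.0011, needs the tested pair to be the most extreme in both lines. Pairs that share a tested condition are among the 1764, so a shift of 1 depletion alone moves many of them too. For such a shift the test had little power, and its p-values cannot show that changes were absent. HAC 1-20 minus HAC 4-65 was -0.55 for H3K14ac and -0.95 for H4K8ac in siKAT7 relative to siControl cells (exact permutation p = 0.50 and p = 0.36). It was -0.77 for H3K14ac and -0.97 for H4K8ac in siHJURP relative to siControl cells (exact permutation p = 0.36 and p = 0.34). This test was added because the lines moved apart, and the lowest adjusted p of its 12 exact comparisons was 0.99.

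Whether KAT7 depletion changed the 2 acetylations by different amounts was read from the difference H3K14ac minus H4K8ac of the T over L changes. For HAC 1-20 it was -0.07 (95% counting interval -0.10 to -0.04) in siKAT7 and -0.15 (-0.18 to -0.13) in siHJURP, both relative to siControl cells. For HAC 4-65 it was -0.46 (-0.50 to -0.42) in siKAT7 and -0.35 (-0.38 to -0.32) in siHJURP cells. By summed reads H3K14ac thus stood lower than H4K8ac in each line after either depletion. By the median of codes the direction turned in HAC 1-20, with 0.089 in siKAT7 and 0.039 in siHJURP cells, and not in HAC 4-65, with -0.35 and -2.94. The same difference between siControl and untreated cells was 0.37 in HAC 1-20 and -0.21 in HAC 4-65, of like size. Averaged over lines it was -0.27 for siKAT7 and -0.25 for siHJURP relative to siControl (exact permutation p = 0.51 and p = 0.53, two-sided). The difference between siKAT7 and siHJURP cells was 0.08 in HAC 1-20 and -0.11 in HAC 4-65 (exact permutation p = 0.97 over both lines). A different effect of KAT7 depletion on the 2 acetylations was not detectable with these libraries.

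The other 5 antibodies of the series give the background of such changes, again with 1 library each. In HAC 1-20 the siKAT7 change of T over L was lowest for H3K14ac and next lowest for H4K8ac among 7 antibodies, which ranged from -0.49 to 0.55. The siHJURP change ranged from -0.78 to 0.47, with H4K20me1 below H3K14ac and H4K8ac. CENP-A was the highest of the 7 in both depletions of this line. The paper reports reduced CENP-A assembly after either depletion, by ChIP recovery, which T over L does not measure. In HAC 4-65 all 7 antibodies were above 0 in siHJURP relative to siControl cells, from 0.02 for H3K14ac to 1.13 for H3K9me3. In siKAT7 cells of HAC 4-65 they ranged from -1.09 for H4K20me1 to 0.96 for H3K9me3. H3K14ac thus had the lowest or next lowest change of the 7 antibodies in both lines and both depletions. H4K8ac was among the 3 lowest except in siKAT7 cells of HAC 4-65, where only H3K9me3 was higher. CENP-A of siControl cells in HAC 4-65 had only 1494 reads, and CENP-A of siKAT7 cells in HAC 1-20 had 4611. In siHJURP cells of HAC 4-65, H3K4me2 had 5590 reads and CENP-A 6009.

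Single T codes were then followed by their reads over the L reads of the library, with 0.5 reads added. A code is called lower or higher here where its change from siControl was past 1.5-fold, which with 1 library per condition is a description and no test. In HAC 1-20, H3K14ac was lower on 29 and higher on 11 of 61 T codes in siKAT7 cells. Over all 157 carried T and L codes 27.4% were lower and 13.4% higher. In siHJURP cells 32 T codes were lower and 5 higher, against 23.6% and 6.37% of all carried codes. H4K8ac was lower on 30 and higher on 3 of 61 T codes in siKAT7 cells, against 26.8% and 6.37% of all carried codes. In siHJURP cells 32 T codes were lower and 2 higher, against 22.3% and 5.1% of all carried codes. About as many T codes of HAC 1-20 were thus lower for the 2 acetylations and for the 2 depletions. Changes past 1.5-fold were also frequent without depletion. In siControl relative to untreated cells H3K14ac was higher on 35 and lower on 9 of 61 T codes, and H4K8ac on 19 and 7. Of 96 L codes 20 were higher and 13 lower for H3K14ac, and 19 and 11 for H4K8ac.

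In HAC 4-65, H3K14ac was lower on 16 and higher on 20 of 75 T codes in siKAT7 cells, against 14.1% lower and 15.3% higher over all 170 carried codes. In siHJURP cells 47 T codes were lower and 18 higher, against 44.7% and 24.1% of all carried codes, with the unusual library described below. H4K8ac was higher on 37 and lower on 3 of 75 T codes in siKAT7 cells, against 22.9% higher and 5.29% lower. In siHJURP cells 24 T codes were higher and 12 lower, against 18.2% and 14.7%. At 2-fold, 10 T codes were past the fold for H4K8ac in siKAT7 cells of HAC 4-65, in place of 40. In siHJURP cells 20 were past 2-fold, in place of 36. Most H4K8ac changes past 1.5-fold were thus under 2-fold in siKAT7 cells of HAC 4-65 but not in siHJURP cells. In siControl relative to untreated cells H4K8ac was past 1.5-fold higher on 35 and lower on 0 of 75 T codes. This was close to the numbers in siKAT7 relative to siControl cells. H3K14ac was higher on 31 and lower on 6. Of 95 L codes 13 were higher and 2 lower for H4K8ac, and 21 and 3 for H3K14ac.

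**Figure D2:**
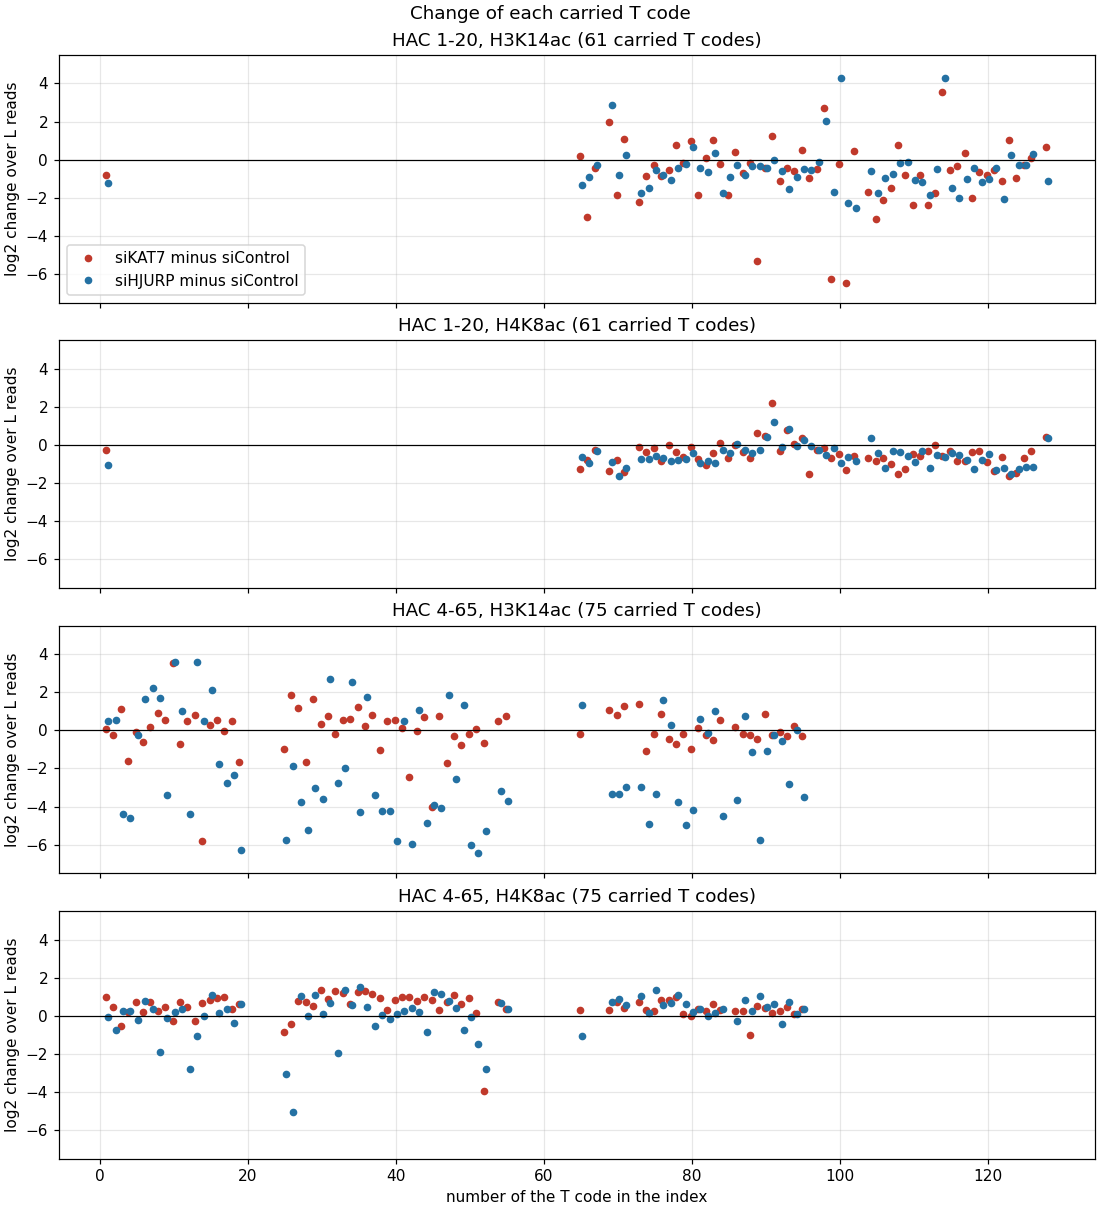
Log2 change over L reads of each carried T code in siKAT7 (red) and siHJURP (blue) relative to siControl cells, by the number of the code in the index. Most H4K8ac changes lay below 0 in HAC 1-20 (52 of 61 codes in siKAT7 and 54 in siHJURP cells) and above 0 in HAC 4-65 (68 of 75 and 51 of 75). H3K14ac changes were more scattered, most of all in siHJURP cells of HAC 4-65. In siControl relative to untreated cells, not drawn, H4K8ac changes were above 0 on 69 of 75 codes of HAC 4-65 and on 39 of 61 of HAC 1-20.

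The 2 acetylations also differed in how evenly T codes moved. The spread of changes over T codes, as a scaled median absolute deviation on the log2 scale, was 1.31 for H3K14ac in siKAT7 relative to siControl cells of HAC 1-20 and 0.66 in siHJURP cells. Over L codes of the same libraries it was 0.44 and 0.35. For H4K8ac the spread over T codes was 0.45 in siKAT7 and 0.47 in siHJURP cells, beside 0.46 and 0.34 over L codes. H3K14ac thus scattered more on T than on L codes, and H4K8ac about equally in siKAT7 cells. In HAC 4-65 the H3K14ac spread in siKAT7 cells was 0.79 over T and 0.39 over L codes, and the H4K8ac spread 0.41 and 0.30. With at least 100 reads in both libraries, the H3K14ac spreads over T codes of siKAT7 cells were 1.02 in HAC 1-20 and 0.72 in HAC 4-65.

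The same scatter was present without depletion. For H3K14ac the spread between siControl and untreated cells was 0.96 over T and 0.60 over L codes in HAC 1-20, and 0.82 and 0.48 in HAC 4-65. T codes had fewer H3K14ac reads than L codes. The median T code had 860 reads and the median L code 3506 in H3K14ac siKAT7 of HAC 1-20, and 216 and 871 in HAC 4-65. The part of depth in the scatter was not tested. The profile of T shares in H3K14ac siKAT7 correlated with that of siControl at r = 0.41 over 61 codes of HAC 1-20 and r = 0.46 over 75 codes of HAC 4-65. For H4K8ac the same r was 0.77 and 0.84. These correlations are across codes of 1 pair of libraries each and are descriptions.

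**Figure D3:**
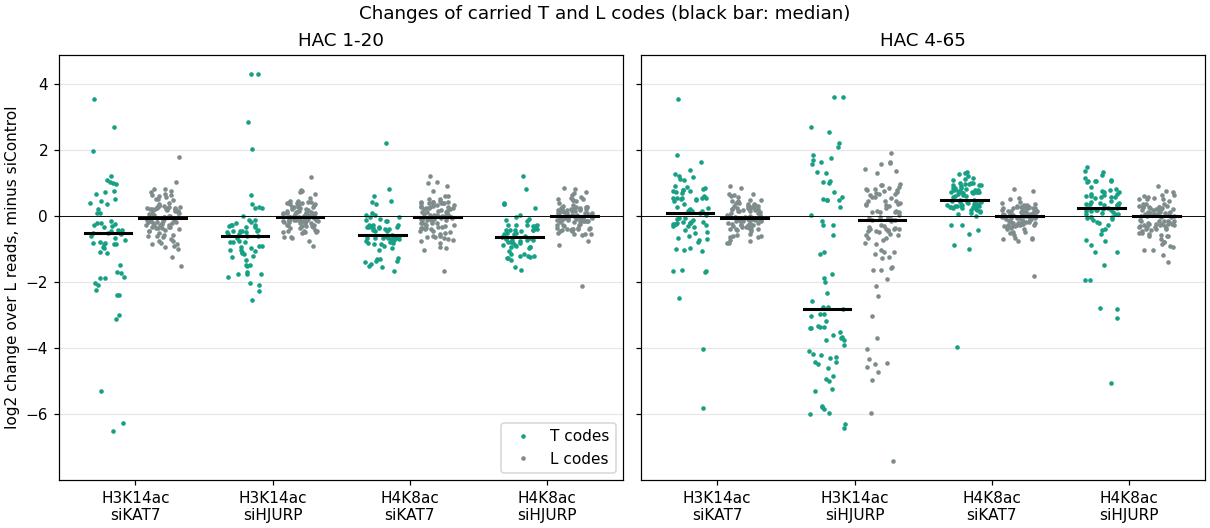
Log2 change over L reads of carried T codes (green) and L codes (grey) relative to siControl, by antibody and siRNA. Each point is 1 code and black bars are medians. H3K14ac T codes spread further than L codes in every comparison shown, and the siHJURP library of HAC 4-65 had a median T change of -2.80.

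The H3K14ac siHJURP library of HAC 4-65 stood apart from the other 11. Its T codes formed 2 sets by read number. Of 75 carried T codes, 43 had 7 to 96 reads and 32 had 105 to 5310 reads. The 43 codes held 2.69% of T reads in siHJURP cells, against 43.5% in siControl cells. Their median was 34.0 reads in the siHJURP library, against 943 in the siControl library. The other 32 codes held 96.0% of T reads in siHJURP cells, against 55.2% in siControl cells. T065 alone held 8.02% of T reads in siHJURP cells, against 3.28% in siControl cells. Lower and higher codes offset each other in the sum, and T over L of the library was nearly that of siControl.

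The low codes were spread over the code numbers. They included 17 of the 25 CENP-A dense codes and 13 of the 25 CENP-A sparse codes defined below. In H4K8ac the same siRNA gave no such split. The 43 codes had a median H4K8ac change of 0.25 in siHJURP relative to siControl cells, and the other 32 codes 0.28. Only 5 carried T codes were under 100 reads in H4K8ac siHJURP of HAC 4-65, and 4 of them were among the 43. The median number of G and C bases was 12 in both sets.

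L codes of that library were affected as well. Their shares correlated with those of siControl at r = 0.45 over 95 codes, against 0.86 to 0.91 in the other H3K14ac and H4K8ac comparisons of HAC 4-65 with siControl. The spread over L codes was 1.05, and 10 of 95 L codes had under 0.1 times their siControl share. L042 had 28 reads, or 0.0088% of L reads, in siHJURP cells, against 8617 reads, or 1.53%, in siControl cells. L042 had 1.39% of L reads in H3K14ac siKAT7 cells and 1.36% in H4K8ac siHJURP cells of the same line. L033 had the largest increase among L codes, with 4.08% of L reads in siHJURP cells, against 1.08% in siControl cells. Since T and L codes both split, all H3K14ac siHJURP values of HAC 4-65 rest on a library of uneven composition.

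**Figure D4:**
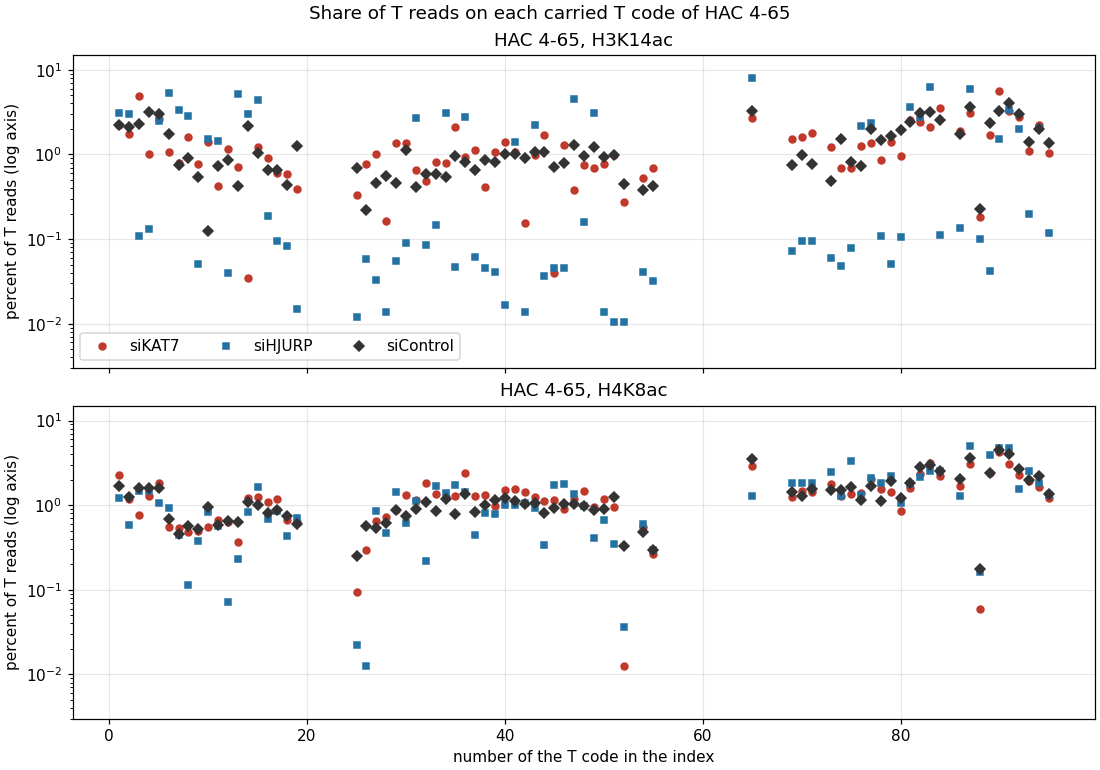
Percent of T reads on each carried T code of HAC 4-65 (log axis), by the number of the code, for H3K14ac above and H4K8ac below. In H3K14ac the siHJURP library (blue) put 43 of 75 codes far below siControl (black), while siKAT7 (red) and all H4K8ac libraries stayed near siControl on most codes.

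CENP-A dense and sparse T codes were compared next, since KAT7 and HJURP both act at CENP-A chromatin. CENP-A density of a code was its CENP-A reads over the mean of H3K4me2, H4K20me1, H3K36me2 and H3K9me3 reads on the log2 scale in untreated cells. No acetylation library entered the choice. In the paper H3K4me2 and H4K20me1 correlated positively with CENP-A, and H3K36me2 and H3K9me3 negatively, so this density is relative to marks that themselves follow CENP-A. The dense and sparse regions of the study were not used. The 20 codes of highest density were called dense and the 20 of lowest density sparse in HAC 1-20, and 25 and 25 in HAC 4-65. The last dense code had a density of 0.63 and the next code 0.59 in HAC 1-20, and 0.82 and 0.80 in HAC 4-65.

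Counts of dense and sparse codes and of stretches are of changes below or above 0, of any size. The H4K8ac change in siHJURP relative to siControl cells of HAC 1-20 was below 0 on 20 of 20 dense codes, with a median of -0.75, and on 17 of 20 sparse codes, with a median of -0.40. In siKAT7 cells it was below 0 on 19 of 20 dense codes, with a median of -0.50, and on 17 of 20 sparse codes, with a median of -0.66. The dense minus sparse difference was thus -0.36 after HJURP depletion and 0.16 after KAT7 depletion. Between siControl and untreated cells of this line it was -0.32, close to the value after HJURP depletion. Over all 61 T codes, 54 were below 0 in siHJURP cells, with a median of -0.62, and 52 in siKAT7 cells, with a median of -0.58. In HAC 4-65 the H4K8ac change was above 0 on 25 of 25 dense codes in siKAT7 cells, with a median of 0.86, and on 20 of 25 sparse codes, with a median of 0.35. In siHJURP cells it was above 0 on 19 of 25 dense codes, with a median of 0.40, and on 13 of 25 sparse codes, with a median of 0.08. Dense codes were the higher ones by 0.52 after KAT7 and by 0.32 after HJURP depletion in this line. Between siControl and untreated cells of this line 24 of 25 dense and 24 of 25 sparse codes were above 0. The dense minus sparse difference there was -0.28, similar in size to the value after HJURP depletion and opposite in sign. Over all 75 T codes, 68 were above 0 in siKAT7 cells, with a median of 0.50, and 51 in siHJURP cells, with a median of 0.25.

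H4K8ac on dense relative to sparse codes was higher in siKAT7 than in siHJURP cells in both lines, by 0.41 in HAC 1-20 and by 0.20 in HAC 4-65. The mean of 0.31 did not pass the test (exact permutation p = 0.52, two-sided). With all codes split at the median density the HAC 4-65 value was -0.19, and with summed reads it was 0.009. For H3K14ac the difference between siKAT7 and siHJURP cells was 0.83 (0.72 to 0.96) in HAC 1-20 and 0.30 (-0.11 to 0.78) in HAC 4-65 (exact permutation p = 0.34 over both lines). The second value rests on the uneven siHJURP library, and it was between 0.28 and 3.03 under other ways to choose or sum the codes. The HAC 1-20 value was between 0.39 and 1.14.

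H3K14ac relative to siControl gave dense minus sparse differences of 0.03 in siKAT7 and -0.15 in siHJURP cells of HAC 1-20. In HAC 4-65 they were 0.11 in siKAT7 and -1.004 in siHJURP cells. The last moved between -3.08 and -0.32 with the way the codes were split, and the HAC 1-20 siHJURP value became 0.056 when all 6 marks served as density reference. Counting intervals of the siKAT7 values included 0 in HAC 1-20 (-0.03 to 0.26) and in HAC 4-65 (-0.03 to 0.39). Between siControl and untreated cells the H3K14ac difference was 0.61 in HAC 1-20 and -0.47 in HAC 4-65. In each line this was larger in size than the siKAT7 value. Over both lines the difference between the depletions was tested for these lists by median and by summed reads, and it passed in neither.

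Stretches of code numbers were compared as well. Code numbers follow the order of units in the introduced DNA, which the paper reports as rearranged in the HACs. A stretch is therefore not always contiguous on the HAC. In T065 to T083 of HAC 1-20 all 17 codes had an H4K8ac change below 0 in both depletions. The medians were -0.61 in siKAT7 and -0.80 in siHJURP cells. In T111 to T128 the change was below 0 on 16 of 17 codes in each, with medians of -0.60 and -0.80. In T094 to T110 it was below 0 on 14 of 16 codes in each, with medians of -0.68 in siKAT7 and -0.40 in siHJURP cells. The stretch T084 to T093 did not follow. There 4 of 10 codes were below 0 in siKAT7 cells and 6 of 10 in siHJURP cells, with medians of 0.06 and -0.19. This stretch held 21.0% of H4K8ac T reads in siKAT7 cells and 20.5% in siHJURP cells, against 13.5% in siControl cells and 15.4% in untreated cells. The siControl library was thus the lowest of the 4 in this stretch. These stretches were proposed with results of these data known.

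In HAC 4-65 the H4K8ac change in siKAT7 cells was highest in T030 to T050, with a median of 0.94 and 21 of 21 codes above 0. It was 0.67 in T015 to T029, 0.44 in T002 to T014, 0.35 in T065 to T083 and 0.27 in T084 to T093. T030 to T050 held 27.8% of H4K8ac T reads in siKAT7 cells, 21.5% in siHJURP cells, 20.9% in siControl cells and 19.3% in untreated cells. The siKAT7 share was thus the highest of the 4. In siHJURP cells the medians of these stretches were 0.23 in T030 to T050, 0.26 in T015 to T029, -0.03 in T002 to T014, 0.59 in T065 to T083 and 0.46 in T084 to T093. H4K8ac after HJURP depletion was therefore highest in the stretches where it was lowest after KAT7 depletion. H4K8ac between siControl and untreated cells ranged from 0.26 in T084 to T093 to 0.98 in T002 to T014, so stretches differed as much between the controls.

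The largest increase in H4K8ac share in HAC 1-20 was on T091 in both depletions. It held 3.05% of T reads in siKAT7 cells and 1.75% in siHJURP cells, against 0.49% in siControl cells and 1.84% in untreated cells. Its log2 change over L reads was 2.20 in siKAT7 and 1.23 in siHJURP relative to siControl. T093, the other code of that stretch among the top 3 in both depletions, held 1.70% in siKAT7 and 1.95% in siHJURP cells, against 0.72% in siControl and 0.98% in untreated cells. In both codes the siControl share was the lowest of the 4, and for T091 the untreated share lay between those of the depletions. The largest decrease was on T123 in siKAT7 cells, with 0.78% of T reads, against 1.83% in siControl and 1.34% in untreated cells. In siHJURP cells it was on T070, with 0.86%, against 1.75% in siControl and 0.75% in untreated cells.

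In H3K14ac of HAC 1-20, T098 had the largest increase in share in both depletions. It held 2.10% of T reads in siKAT7 and 1.55% in siHJURP cells, against 0.23% in siControl and 0.79% in untreated cells. T105 had the largest decrease in siKAT7 cells, with 0.39% of T reads, against 2.42% in siControl and 1.12% in untreated cells. T066 held 0.46% in siKAT7 and 2.31% in siHJURP cells, against 2.60% in siControl and 2.65% in untreated cells. Only the siKAT7 library was low on T066. T102 had the largest decrease in siHJURP cells, with 0.33%, against 1.16% in siControl and 0.25% in untreated cells. Codes under 100 reads were outside these ranks. T099 and T101, chosen after their values were seen, had 9 and 10 reads in siKAT7 cells, against 908 and 1179 in siControl cells.

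In HAC 4-65 the largest H3K14ac increase in siKAT7 cells was on T010. It held 1.40% of T reads in siKAT7 and 1.52% in siHJURP cells, against 0.13% in siControl and 0.99% in untreated cells. Both depletions were thus above siControl on T010, and the untreated library was close to them. T004 had the largest decrease in siKAT7 cells, with 203 reads, or 1.003% of T reads, against 3.22% in siControl and 2.61% in untreated cells. T013 held 5.12% of T reads in the uneven siHJURP library, against 0.42% in both siControl and untreated cells. For H4K8ac, T030, T036 and T032 had the largest increases in siKAT7 cells, with log2 changes over L reads of 1.33, 1.32 and 1.28. They all lie in T030 to T050. T032 went the other way in siHJURP cells, with 0.22% of T reads against 1.08% in siControl cells. T035 had the largest increase in siHJURP cells, with 1.72%, against 0.79% in siControl and 1.22% in untreated cells.

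The 27 T codes carried in both lines showed few changes in common. In H3K14ac, T069 and T071 were past 1.5-fold higher and T074 lower in siKAT7 relative to siControl cells of both lines. The changes of T071 were 1.10 in HAC 1-20 and 1.28 in HAC 4-65, and those of T074 -0.84 and -1.06. T069 was 1.96 in HAC 1-20, where siControl had 96 reads, and 1.10 in HAC 4-65. In siHJURP cells T070, T073, T074, T084 and T093 were lower in both lines, and none was higher. T074 was thus lower for H3K14ac after both depletions in both lines. Its H3K14ac shares were 1.53% in siKAT7 and 1.19% in siHJURP cells of HAC 1-20, against 1.95% in siControl and 2.87% in untreated cells. Those of HAC 4-65 were 0.69% and 0.048%, against 1.51% in siControl and 1.13% in untreated cells. The siHJURP values of HAC 4-65 come from the uneven library, in which 47 of 75 T codes were lower. In HAC 1-20 32 of 61 were lower in siHJURP cells. With so many lower codes in each line, some are lower in both without a link between lines. In each depletion 3 codes were lower in HAC 1-20 and higher in HAC 4-65, and 2 the reverse. As a share of T reads T070 was level in HAC 1-20, with 1.14% in siHJURP and 1.17% in siControl cells.

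In H4K8ac only T088 was lower in siKAT7 cells of both lines, at 59 reads in HAC 1-20 and 14 in HAC 4-65, against 30 and 45 in siControl cells. In siHJURP cells T091 and T093 were higher and T065 lower in both. T091 changed by 1.23 in HAC 1-20 and 0.62 in HAC 4-65, T093 by 0.84 and 0.73, and T065 by -0.62 and -1.08. As a share of T reads T065 was level in HAC 1-20, with 2.47% in siHJURP and 2.52% in siControl cells. Its change over L reads there was about the T over L change of the whole library, -0.60. The other codes divided by line. The H4K8ac change was lower in HAC 1-20 than in HAC 4-65 on 22 of 27 codes in siKAT7 cells and on 22 of 27 in siHJURP cells. The median of the 27 codes was -0.32 in HAC 1-20 and 0.32 in HAC 4-65 after KAT7 depletion, and -0.62 and 0.46 after HJURP depletion. Across the 27 codes the changes of the 2 lines correlated between -0.12 and 0.01, given as a description.

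The 2 acetylations did not move together code by code. Over T codes the change in H3K14ac and that in H4K8ac correlated at 0.07 in siKAT7 and -0.08 in siHJURP relative to siControl cells of HAC 1-20, and at -0.04 and 0.06 in HAC 4-65. In HAC 1-20 the signs agreed on 42 of 61 codes in siKAT7 and 46 of 61 in siHJURP cells, where most codes were below 0 for both. In HAC 4-65 they agreed on 38 of 75 and 34 of 75 codes. H3K14ac was the lower of the 2 changes on 51 of 75 codes in siKAT7 cells of HAC 4-65 and on 34 of 61 in HAC 1-20. These libraries share no reads, and codes of 1 library are not replicates.

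In all 8 comparisons of a depletion with siControl, the L profile correlated more closely with that of siControl than the T profile did. Shares of L reads in siKAT7 and siControl cells correlated at r = 0.84 for H3K14ac and 0.83 for H4K8ac over 96 codes of HAC 1-20, and at 0.90 and 0.91 over 95 codes of HAC 4-65. Between siControl and untreated cells the same r was 0.69 and 0.67 in HAC 1-20, and 0.89 for both acetylations in HAC 4-65. Past 1.5-fold were 10 L codes higher and 14 lower for H3K14ac, and 7 higher and 12 lower for H4K8ac, in siKAT7 cells of HAC 1-20. Those of HAC 4-65 were 6 and 8 for H3K14ac, and 2 and 6 for H4K8ac. L012 was lower for H3K14ac in siKAT7 cells of both lines, with changes of -0.76 in HAC 1-20 and -0.75 in HAC 4-65. L037 was higher, with 0.63 and 0.61, and so was L062, with 0.63 and 0.92. For H4K8ac L051, L055 and L072 were lower in siKAT7 cells of both lines, L072 with -0.73 and -0.76. L042 and L074 were lower and L058 higher for H3K14ac in siHJURP cells of both lines, with the uneven library as one of the pair. The number of L codes that agreed between lines was thus about that of T codes, out of 95 L and 27 T codes. The largest L change in siKAT7 cells of HAC 1-20 was on L060 for H3K14ac, with 0.57% of L reads against 0.17% in siControl and 0.38% in untreated cells.

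The 122 codes carried in both lines (27 T and 95 L) were also tested with the lines as replicates, by edgeR's quasi-likelihood test on all 14 libraries of an acetylation with Benjamini-Hochberg adjustment. No code passed an adjusted p of 0.05 in any of the 6 comparisons, so the share called was 0% of 122 codes, higher or lower, in each. For H3K14ac the number with an unadjusted p below 0.05 was 0 in siKAT7 relative to siControl, 7 in siHJURP relative to siControl and 10 in siKAT7 relative to siHJURP. For H4K8ac it was 0 in all 3. DESeq2 also called 0 codes in each comparison, with 0, 15 and 12 codes for H3K14ac and 1, 0 and 1 for H4K8ac at an unadjusted p below 0.05. The coefficient of variation between libraries, beyond line and condition, was 0.49 for H3K14ac and 0.54 for H4K8ac. It depended on the libraries used. With the 6 siRNA libraries alone it was 0.56 for H3K14ac and 0.25 for H4K8ac, and no code passed there either. Without the uneven library it was 0.38 for H3K14ac. Leaving out the H3K14ac siHJURP library of HAC 1-20, so that the uneven library of HAC 4-65 alone stood for siHJURP, gave 40 called codes relative to siControl (16 higher and 24 lower). It gave 30 for siKAT7 relative to siHJURP (20 higher and 10 lower). Leaving out the uneven library gave 0 in both.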

How the data were processed

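The authors amplified the position codes of ChIP DNA by competitive PCR and sequenced them; per the labels, reads were trimmed with cutadapt 4.0, aligned with Bowtie and counted with SAMtools. The deposited values are raw counts of reads per code, with no normalization and no molecular identifiers. Unmatched reads (6.28% to 8.97%) were left out of ratios, except in 1 alternative. Libraries were grouped by their labels, and 4 CENP-A tables of other lines were not used.

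T over L was the log2 ratio of summed counts, with a 95% counting interval from the 4 sums. Code changes used counts plus 0.5 over L reads. Exact permutation tests drew ordered pairs of the 7 conditions within each line, with Benjamini-Hochberg adjustment over 18 tests (statsmodels 0.14.6, scipy 1.17.1, Python 3.11.15). Codes were tested with edgeR 4.0.16 (TMM, filterByExpr, terms for condition and line, R 4.3.3), and DESeq2 1.42.0 was an alternative. Scripts were checked on simulated data.

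Codes named were the 3 T codes with the largest rise and fall in share at 100 reads or more, codes past 1.5-fold the same way in both lines, the 2 richest T codes, any codes called by edgeR, and the 2 L codes with the largest rise and fall. A part of them is printed. Members, lists and stretches were chosen with earlier results of these data known. Alternatives covered the reads in the ratio, control library, density reference, split, pseudocount, fold, normalization, filter, tool and single libraries. No replicate within a line exists, so clone, culture and library cannot be told apart from the line. T codes were taken as CenU and L codes as NCU from their numbers. The GC values leave out 6 CenU codes whose listed number differs from their place by spelling, and L117, which the NCU list lacks.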

Additional observations from a re-analysis of the deposited data

Results flagged for a closer look

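The T over L change from siControl differed between the lines, and in direction for H4K8ac. The H3K14ac changes of HAC 4-65, 0.06 in siKAT7 and 0.02 in siHJURP cells, lay within the yardstick of 0.31. For H3K14ac in siKAT7 relative to siControl cells, HAC 1-20 minus HAC 4-65 was -0.55 on the log2 scale (exact permutation p = 0.50, two-sided). For H4K8ac in siKAT7 relative to siControl cells it was -0.95 (exact permutation p = 0.36). For H3K14ac in siHJURP relative to siControl cells it was -0.77 (exact permutation p = 0.36), and for H4K8ac -0.97 (exact permutation p = 0.34). The adjusted p of each was 0.99 over 12 exact comparisons, so none passed although the counting intervals of the lines were apart.

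In 4 siRNA libraries, T reads on codes that a line does not carry were above the siControl level beyond counting error. In HAC 1-20 they were 1.93% of T reads in H3K14ac siKAT7 and 1.75% in H3K14ac siHJURP cells, against 1.30% in siControl cells. They were 0.88% in H4K8ac siKAT7 cells of HAC 1-20, against 0.71% in siControl cells. In HAC 4-65 they were 1.69% in H4K8ac siHJURP cells, against 1.33% in siControl cells. H3K14ac siHJURP of HAC 4-65 was above it within counting error. Untreated cells, which are no depletion, were above siControl in all 4 libraries. Their H3K14ac libraries had 16.4% (HAC 1-20) and 3.02% (HAC 4-65), and their H4K8ac libraries 6.76% and 1.60%. The source of these reads was not tested.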

How the results depend on the processing

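No paired analysis was possible because each group has 1 library and the labels carry no replicate numbers; the line was the one block, as a term in edgeR and held fixed in the permutations. Of 48 alternative values of the T over L changes from siControl, 18 stayed within counting error and 3 reversed. With untreated cells as control they were, in siKAT7 and siHJURP cells, -0.011 and -0.27 for H3K14ac and -0.31 and -0.48 for H4K8ac of HAC 1-20. For HAC 4-65 the values were 0.37 and 0.33 for H3K14ac, and 1.04 and 0.89 for H4K8ac. On carried codes only, an alternative chosen after seeing the data, they were 0.21 (reversed) and -0.043 for H3K14ac and -0.25 and -0.42 for H4K8ac of HAC 1-20, and 0.39 and 0.35 for H3K14ac and 1.05 and 0.89 for H4K8ac of HAC 4-65. As a share of all reads with unmatched reads they were -0.40 and -0.63 for H3K14ac and -0.26 and -0.38 for H4K8ac of HAC 1-20, and 0.34 and 0.24 for H4K8ac of HAC 4-65. The median over codes gave -0.58 for H3K14ac siHJURP and -0.57 for H4K8ac siKAT7 of HAC 1-20, and 0.14 for H3K14ac siKAT7 and 0.25 for H4K8ac siHJURP of HAC 4-65. It gave -2.69 for H3K14ac siHJURP of HAC 4-65, and leaving out the 5 richest codes gave -0.11 there, both reversed. Without those codes H3K14ac siHJURP of HAC 1-20 was -0.72 and H4K8ac siKAT7 of HAC 4-65 was 0.58. The cause of these differences was not tested.

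Of the dense minus sparse differences from siControl, 45 of 56 alternative values stayed within error. For H3K14ac siKAT7 the value was 0.29 with siControl density and 0.28 with summed reads in HAC 1-20, and 0.46 with 6 marks as density reference in HAC 4-65. For H3K14ac siHJURP it reversed to 0.056 with 6 marks in HAC 1-20. In HAC 4-65 it was -3.08 with 6 marks, -2.20 with siControl density, -2.20 with a split at the median, -1.86 and -3.07 with codes carried at 0.3% and 0.05%, and -0.32 with summed reads. H4K8ac siHJURP of HAC 4-65 was 0.55 with summed reads. At 2-fold, T codes past the fold numbered 25 for H3K14ac siKAT7, 12 for H4K8ac siKAT7 and 13 for H4K8ac siHJURP of HAC 1-20. The HAC 4-65 numbers were 18 for H3K14ac siKAT7, 10 for H4K8ac siKAT7 and 20 for H4K8ac siHJURP. With at least 100 reads, 22 were past 1.5-fold for H3K14ac siHJURP of HAC 4-65.

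Over both lines, the median of codes gave -0.036 for H4K8ac T over L in siKAT7 relative to siControl and 1.28 for the acetylation difference between siKAT7 and siHJURP. Summed reads gave 0.11 for H4K8ac dense minus sparse in siHJURP cells. No permutation test passed under any of the alternatives run, with a lowest unadjusted exact p of 0.085 and a lowest adjusted p of 0.84. Leaving out 1 library at a time, edgeR called 0 to 40 codes for H3K14ac in siHJURP relative to siControl and 0 to 30 in siKAT7 relative to siHJURP. In the other 4 comparisons it called 0. The 2 fits with calls lacked the HAC 1-20 siHJURP library and assumed that the lone HAC 4-65 library varies like the others. Depth limits codes under 100 reads, which were up to 12 of 75 T codes outside the uneven library.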
